A study of Homo sapiens with 4 samples.

Results

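The genes described here encode the subunits of the proteasome, its activators, its inhibitor and its assembly chaperones. They were chosen by symbol alone, as every gene whose symbol reads PSM, a letter from A to G and a number, which gave 48 of 24424 counted genes. PSMB8, PSMB9, PSMB10, PSME1 and PSME2 formed the immunoproteasome group of 5 genes, and the other 43 are called the other subunits. Of the 48 genes, 46 reached 1 CPM (counts scaled to the library total) in at least 1 library. All libraries came from BEAS-2B, a human bronchial epithelial line that was immortalised in culture and that the labels give as wild type. The siOCLN+LPS cells received an siRNA against occludin, a tight junction protein encoded by OCLN, for 24 h and then LPS (bacterial lipopolysaccharide) for 2 h. The wtOCLN+LPS cells were transfected with wild-type occludin for 24 h and then received LPS for 2 h. The LPS cells received LPS, for which the protocol shared by all samples gives 2 h, and the CTRL cells were untreated. The labels mention no transfection or mock transfection for LPS and CTRL, and the promoter of the occludin construct is not given. Each group was 1 library, so a difference between libraries had no replicate check, and the effect of a transfection and that of its cargo cannot be told apart.

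The proteasome is the main protease of the cytosol and nucleus and degrades proteins tagged with ubiquitin. Its 20S core is a barrel of stacked rings, in which alpha subunits form the gate and beta subunits carry the peptide-cutting sites, and the 19S particle on its ends binds, unfolds and feeds in substrates. Interferons and other inflammatory signals induce PSMB8, PSMB9 and PSMB10, which take the places of PSMB5, PSMB6 and PSMB7 in newly built cores, and PSME1 and PSME2, which form an activator ring, and these together favour peptides for display on MHC class I.

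The 4 libraries held 13867494 to 17500031 counts, which makes 1 count equal to 0.0571 to 0.0721 CPM. OCLN, the targeted gene, had 21.0 CPM in siOCLN+LPS, 29.7 CPM in wtOCLN+LPS, 50.4 CPM in LPS and 55.4 CPM in CTRL. The siOCLN+LPS value was 0.417 times the LPS value (95% counting interval 0.366 to 0.473). The wtOCLN+LPS value was 0.588 times the LPS value (0.524 to 0.660), which goes against a label of added occludin, and the library is therefore called the library labelled wtOCLN+LPS. All 8 markers of bronchial epithelium reached 1 CPM in every library, and their summed level in siOCLN+LPS, the library labelled wtOCLN+LPS, LPS and CTRL was 2878, 2893, 1442 and 1628 CPM. Past 2-fold above LPS were 5 of the 8 for siOCLN+LPS and 4 for the library labelled wtOCLN+LPS, against 3.32% of all tested genes in each. EPCAM was at least 1.5-fold lower in siOCLN+LPS, with 1.26 CPM, against 2.67 CPM in LPS. The 10 leukocyte markers summed to 14.0, 16.2, 21.4 and 23.3 CPM in the same order, the defining marker CD3E was at 0 in all 4 libraries, and PTPRC was at 0 in all but CTRL. Of 8 fibroblast markers, 3 reached 1 CPM in any library, and the 8 summed to 171, 179, 129 and 152 CPM. DCN was at 0 in all but the library labelled wtOCLN+LPS, and COL3A1 and LUM in all but siOCLN+LPS. Of the 3 tested, 1 (PDGFRB) was at least 2-fold higher than in LPS in both transfected libraries. The 5 markers of endothelium summed to 0.441 to 1.59 CPM. The part of these marker differences in the results below was not tested. In bulk RNA, fewer cells of a kind and less RNA per cell cannot be told apart.

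The promoters of the immunoproteasome group are shown because 3 of its genes, and no other subunit, were past 2-fold against LPS. Each sequence runs from 250 bases before to 50 bases after the RefSeq gene start on GRCh38.p14, in the direction of the gene, so its last bases lie in the first exon. PSMB10 lies at chr16:67936801-67937100 on the minus strand. PSME2 lies at chr14:24146561-24146860 on the minus strand, and PSME1 at chr14:24135944-24136243 on the plus strand. PSMB9 lies at chr6:32853942-32854241 on the plus strand, and PSMB8 at chr6:32844630-32844929 on the minus strand. Capitals mark a match on either strand to GAAA, any 2 bases and GAAA again, the core of the interferon-stimulated response element (ISRE), which interferon regulatory factors bind.
PSMB10: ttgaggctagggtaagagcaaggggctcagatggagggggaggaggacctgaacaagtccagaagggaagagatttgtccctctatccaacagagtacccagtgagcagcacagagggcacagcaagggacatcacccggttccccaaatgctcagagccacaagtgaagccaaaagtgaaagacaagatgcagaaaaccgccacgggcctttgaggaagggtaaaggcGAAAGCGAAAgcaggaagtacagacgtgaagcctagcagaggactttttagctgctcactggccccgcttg
PSME2: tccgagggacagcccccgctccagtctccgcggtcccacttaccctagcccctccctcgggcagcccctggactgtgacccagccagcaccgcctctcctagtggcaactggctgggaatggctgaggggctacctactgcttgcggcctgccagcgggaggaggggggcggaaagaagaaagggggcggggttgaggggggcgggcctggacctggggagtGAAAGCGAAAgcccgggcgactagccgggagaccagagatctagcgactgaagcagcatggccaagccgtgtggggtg
PSME1: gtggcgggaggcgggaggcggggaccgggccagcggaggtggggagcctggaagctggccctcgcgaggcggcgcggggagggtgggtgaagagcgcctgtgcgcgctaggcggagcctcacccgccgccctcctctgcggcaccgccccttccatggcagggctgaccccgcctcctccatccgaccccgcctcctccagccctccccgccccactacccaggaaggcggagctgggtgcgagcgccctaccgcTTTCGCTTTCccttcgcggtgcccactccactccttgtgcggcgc
PSMB9: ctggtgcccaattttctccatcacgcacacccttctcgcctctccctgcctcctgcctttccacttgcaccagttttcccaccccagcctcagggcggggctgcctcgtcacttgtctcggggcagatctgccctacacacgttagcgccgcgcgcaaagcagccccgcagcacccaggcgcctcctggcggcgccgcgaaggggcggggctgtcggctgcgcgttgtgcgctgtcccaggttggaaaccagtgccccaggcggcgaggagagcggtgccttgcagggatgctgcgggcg
PSMB8: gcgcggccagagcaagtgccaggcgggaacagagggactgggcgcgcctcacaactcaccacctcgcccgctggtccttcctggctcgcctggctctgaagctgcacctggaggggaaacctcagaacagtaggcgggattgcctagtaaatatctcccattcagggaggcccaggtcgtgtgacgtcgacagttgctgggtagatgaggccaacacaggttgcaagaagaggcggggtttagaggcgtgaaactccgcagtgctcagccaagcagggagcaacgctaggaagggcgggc

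The ISRE letters were in 3 of the 5 windows. In PSMB10 they began 21 bases before the start and in PSME2 28 bases before it, both on the strand of the gene. In PSME1 they began 5 bases after the start, on the opposite strand. Among the other subunits, 3 of 37 with a window held the letters (PSMA4, PSMB4 and PSMG4), against 3.65% of 27305 promoters of the same length. The letters TTCNNNGAA (the gamma-activated site) were in 0 of 5 and 5 of 37 windows, against 7.88% of all. TGACNNNGC (the antioxidant response element) was in 3 of 5 (PSMB9, PSME1 and PSME2) and in 10 of 37 windows, against 13.6% of all. The kappaB consensus was in 0 of 5 and 0 of 37 windows, against 5.72% of all. Both strands were read for each motif, and no 2 of these matches overlapped in the 5 windows. A match describes letters in a window and shows no binding.

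In LPS against CTRL the proteasome genes lay close together. None of 46 was at least 2-fold higher, against 1.6% of 13551 tested genes, and none was at least 2-fold lower, against 0.207%. At 1.5-fold the counts were again 0 higher, against 3.45%, and 0 lower, against 2.8%. Throughout, a level is in CPM, a ratio is one of CPM with an exact 95% interval for counting error only, and a count of genes past a fold uses log2(CPM + 1).

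The immunoproteasome group summed to 292 CPM in LPS and 286 CPM in CTRL, a ratio of 1.02 (0.981 to 1.07). PSMB9 had 48.3 CPM in LPS and 42.6 CPM in CTRL, a ratio of 1.13 (1.02 to 1.26), and was the one gene of the group whose interval lay wholly above 1. PSMB8, PSMB10, PSME1 and PSME2 had ratios of 1.06, 1.04, 0.944 and 1.07, and each interval included 1. PSMA6, an alpha subunit of the core, had 90.3 CPM in LPS and 69.5 CPM in CTRL, which at 1.30 (1.20 to 1.41) was the highest ratio of the 46 genes. PSMA7, another alpha subunit, had 149 CPM in LPS and 177 CPM in CTRL, a ratio of 0.842 (0.795 to 0.892). These 2 genes of the same ring lay on opposite sides of 1. In the other roles the ratios ran from 0.897 (PSMB6) to 1.07 (PSMB1) in the constitutive beta ring, from 0.911 (PSMC5) to 1.04 (PSMC2) in the 19S ATPases and from 0.869 (PSMD9) to 1.06 (PSMD11) in the 19S non-ATPases. They ran from 0.895 (PSMF1) to 0.992 (PSME3) in the other activators and the inhibitor, and from 0.842 (PSMG1) to 1.09 (PSMG4) in the chaperones. In all, 3 genes had an interval wholly above 1 (PSMA3, PSMA6 and PSMB9), against 9.11% of tested genes, and 6, or 13.0%, had one wholly below 1 (PSMA7, PSMB6, PSMC5, PSMD9, PSMF1 and PSMG1), against 31%. Of 41 other subunits, 11 lay above and 30 below a log2 ratio of 0 with library totals, but with TMM scaling 31 lay above and 10 below, so no direction is drawn from that split. By library totals, all tested genes had a median log2 ratio of -0.09.

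After transfection the immunoproteasome group stood higher in both libraries than in LPS. Levels in the order siOCLN+LPS, library labelled wtOCLN+LPS, LPS and CTRL were as follows. PSMB10, the inducible trypsin-like subunit, had 36.0, 41.1, 15.8 and 15.2 CPM. PSME2, the beta chain of the activator ring, had 117, 135, 55.2 and 51.7 CPM. PSME1, its alpha chain, had 225, 243, 111 and 117 CPM. In these 3 genes both transfected libraries lay above both others. PSMB9, the inducible subunit that takes the place of PSMB6, had 78.0, 83.0, 48.3 and 42.6 CPM. PSMB8, the inducible chymotrypsin-like subunit, had 88.7, 98.9, 62.7 and 59.2 CPM. Both transfected libraries were again the highest in these 2 genes. Per kilobase of transcript, PSME1 had the highest level of the group in every library, from 108 to 238 CPM per kb, and PSMB10 the lowest, from 12.5 to 33.8 CPM per kb.

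**Figure D1:**
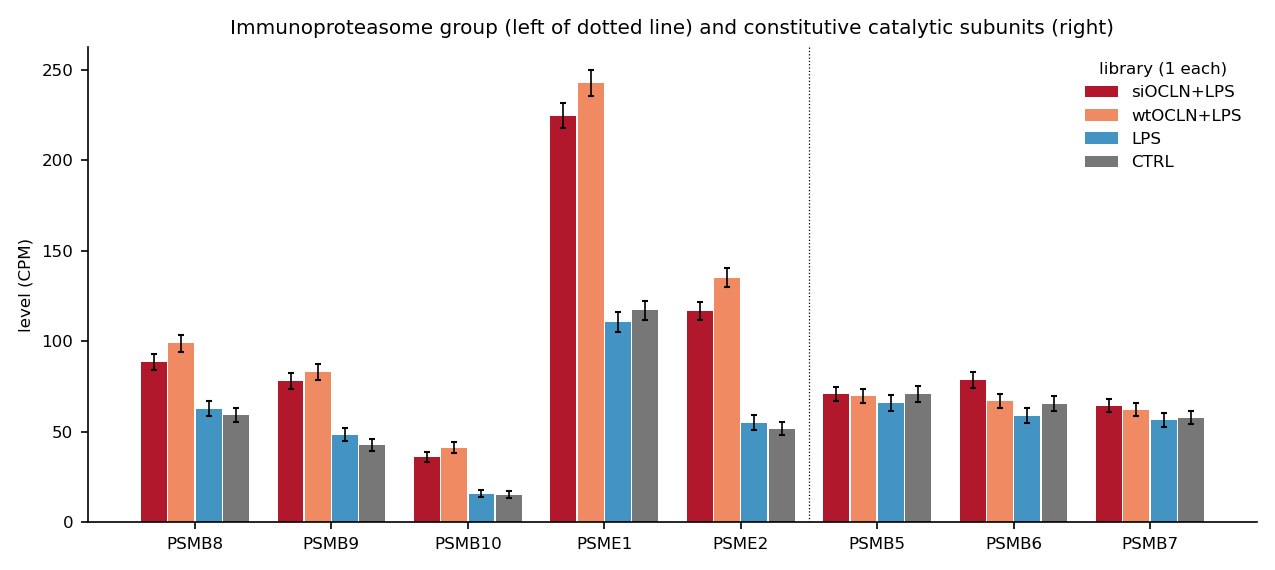
Level in CPM (vertical axis) of the immunoproteasome genes and the catalytic subunits they replace, as 1 bar for each of the 4 libraries, with exact 95% counting intervals as whiskers. The transfected libraries stand above LPS and CTRL for PSMB8, PSMB9, PSMB10, PSME1 and PSME2, while PSMB5 lies between 65.8 and 70.9 CPM in all 4.

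In siOCLN+LPS against LPS, PSMB10 had a ratio of 2.28 (1.95 to 2.67), PSME2 2.12 (1.95 to 2.30) and PSME1 2.03 (1.91 to 2.16). PSMB9 followed at 1.61 (1.47 to 1.77) and PSMB8 at 1.42 (1.30 to 1.54). The 5 genes together stood at 544 CPM in siOCLN+LPS and 292 CPM in LPS, and the ratio was 1.86 (1.79 to 1.93). Among the 46 genes, 3 or 6.52% were at least 2-fold higher (PSMB10, PSME1 and PSME2), against 3.32% of 13505 tested genes, and 0 at least 2-fold lower, against 3.92%. At 1.5-fold, 6 or 13.0% were higher (PSMA5, PSMA7 and PSMB9 besides those 3), against 9.09%, and 0 lower, against 15.3%. PSMB10's ratio was exceeded by 2.35% of tested genes and PSMB8's by 11.6%. An interval wholly above 1 was seen for 26 genes or 56.5%, the 5 of the group and 21 others, against 24.7% of tested genes, and one wholly below 1 for 6 or 13.0%, against 42.5%.

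The library labelled wtOCLN+LPS gave the same 3 genes past 2-fold against LPS. PSMB10 had a ratio of 2.61 (2.24 to 3.04), PSME2 2.45 (2.26 to 2.66) and PSME1 2.20 (2.07 to 2.33), with PSMB9 at 1.72 (1.57 to 1.88) and PSMB8 at 1.58 (1.45 to 1.71). The sum was 601 CPM, against 292 CPM in LPS, a ratio of 2.05 (1.98 to 2.13). Those 3 genes, or 6.52%, were at least 2-fold higher, against 3.32% of 13493 tested genes, and 0 at least 2-fold lower, against 3.69%. At 1.5-fold, 8 or 17.4% were higher (the 5 of the group with PSMA5, PSMA6 and PSMB3), against 8.59%, and 0 lower, against 15.1%. Intervals wholly above 1 were seen for 22 genes or 47.8%, against 22.8%, and wholly below 1 for 9 or 19.6%, against 44%. Both comparisons share the LPS library. With CTRL in its place, siOCLN+LPS had 2 genes at least 2-fold higher (PSMB10 and PSME2), against 3.94% of tested genes, and the library labelled wtOCLN+LPS had 3, against 3.91%.

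The immunoproteasome transcripts are short and rich in GC. The longest annotated transcript had a median of 1218 bp in the group, 1686 bp in the other subunits and 3377.5 bp over all tested genes, and GC content was 55.3%, 48.3% and 49.0%. Once the trend of the log2 ratio on these properties was taken out, PSMB10, PSME2 and PSME1 stood at log2 ratios of 0.94, 0.91 and 0.86 in siOCLN+LPS against LPS, so none passed 2-fold. In the library labelled wtOCLN+LPS against LPS they stood at 1.14, 1.13 and 0.999, so PSME1 lay just under 2-fold.

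The catalytic pairs were compared within each library, where scaling plays no part. For PSMB8 to PSMB5 the ratio of counts was 1.25 (1.16 to 1.35) in siOCLN+LPS, 1.42 (1.32 to 1.53) in the library labelled wtOCLN+LPS, 0.952 (0.866 to 1.05) in LPS and 0.836 (0.766 to 0.912) in CTRL. For PSMB9 to PSMB6 it was 0.993 (0.920 to 1.07), 1.24 (1.15 to 1.34), 0.821 (0.740 to 0.911) and 0.650 (0.589 to 0.716) in the same order. For PSMB10 to PSMB7 it was 0.559 (0.506 to 0.616), 0.660 (0.60 to 0.726), 0.279 (0.239 to 0.325) and 0.262 (0.227 to 0.303). In each pair the inducible subunit took the largest share in the library labelled wtOCLN+LPS and the smallest in CTRL. Per kilobase of transcript, the PSMB8 to PSMB5 ratio was 1.12, 1.27, 0.854 and 0.749, that of PSMB9 to PSMB6 was 1.09, 1.36, 0.898 and 0.711, and that of PSMB10 to PSMB7 was 0.449, 0.531, 0.225 and 0.211.

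The constitutive partners were less far apart. PSMB5, the constitutive chymotrypsin-like subunit, had 70.9, 69.7, 65.8 and 70.9 CPM in the same order of libraries. PSMB7, the constitutive trypsin-like subunit, had 64.5, 62.3, 56.5 and 57.8 CPM. PSMB6, the constitutive caspase-like subunit, had 78.6, 66.9, 58.8 and 65.6 CPM, so siOCLN+LPS stood highest. The PSMB9 to PSMB6 ratio stood at 1.21 times its LPS value (1.06 to 1.38) for siOCLN+LPS, and at 1.51 times (1.33 to 1.72) for the library labelled wtOCLN+LPS. The PSMB10 to PSMB7 ratio stood at 2.00 times (1.67 to 2.40) its LPS value for siOCLN+LPS and at 2.36 times (1.97 to 2.83) for the library labelled wtOCLN+LPS. Between LPS and CTRL it differed by 1.07 times (0.862 to 1.32), an interval that includes 1, whereas the PSMB9 to PSMB6 ratio in LPS was 1.26 times (1.10 to 1.46) that in CTRL. The PSMB8 to PSMB5 ratio in LPS was 1.14 times (1.001 to 1.30) that in CTRL. Against LPS it stood at 1.32 times (1.17 to 1.48) for siOCLN+LPS and 1.49 times (1.32 to 1.68) for the library labelled wtOCLN+LPS.

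**Figure D2:**
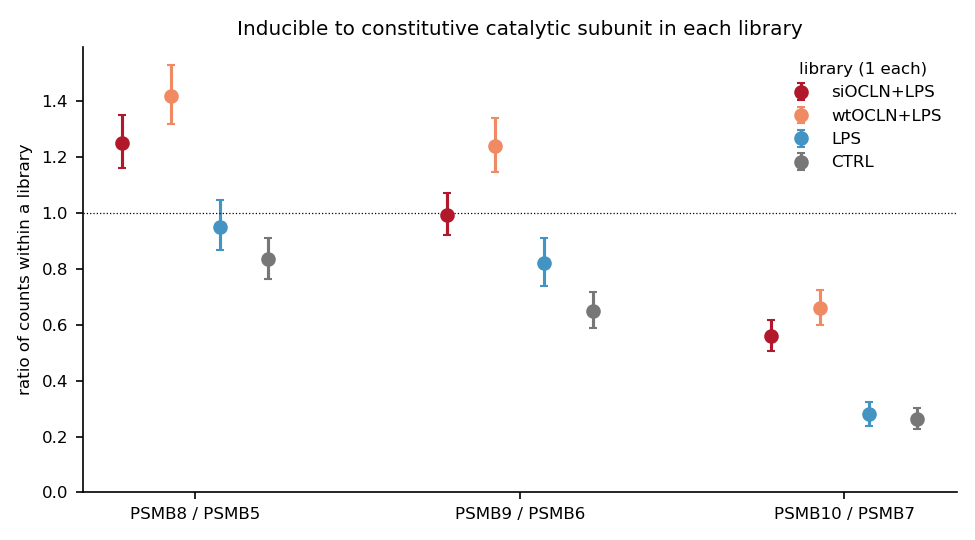
Ratio of inducible to constitutive counts (vertical axis) in each of the 4 libraries for the PSMB8 to PSMB5, PSMB9 to PSMB6 and PSMB10 to PSMB7 pairs, as points with exact 95% counting intervals as whiskers; the dotted line marks equal counts. All 3 pairs are highest in the library labelled wtOCLN+LPS, and the PSMB10 to PSMB7 ratio is 0.559 and 0.660 in the transfected libraries against 0.279 in LPS and 0.262 in CTRL.

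In the 20S alpha ring, 6 of 7 genes had a log2 ratio above 0 in each transfected library against LPS, beside 39.2% of all tested genes for siOCLN+LPS and 36.8% for the library labelled wtOCLN+LPS. PSMA5 had 87.4, 88.9, 54.9 and 53.6 CPM in siOCLN+LPS, the library labelled wtOCLN+LPS, LPS and CTRL. PSMA6 had 135, 138, 90.3 and 69.5 CPM, and PSMA7 had 226, 215, 149 and 177 CPM. Each of these 3 stood higher in both transfected libraries than in LPS and CTRL, and so did PSMA2, PSMA3 and PSMA4. Against LPS, PSMA5 had the highest ratio of any other subunit, 1.59 (1.46 to 1.74) for siOCLN+LPS and 1.62 (1.48 to 1.77) for the library labelled wtOCLN+LPS, while PSMA1 had the lowest of the ring, 0.998 (0.920 to 1.08) and 0.949 (0.874 to 1.03). The alpha subunits summed to 827, 812, 628 and 619 CPM. Their median log2 ratio was 0.26 in each transfected library against LPS, and 0.35 and 0.29 after removal of the trend on length and GC. Per kilobase, PSMA7 was the highest of the alpha genes in every library, 161 to 244 CPM per kb, and PSMA5 the lowest, 20.5 to 34.0 CPM per kb.

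The 7 constitutive beta subunits had their highest ratios in PSMB3, a structural subunit of the ring, with 94.9, 99.03, 65.1 and 69.5 CPM. Its ratio to LPS was 1.46 (1.34 to 1.58) for siOCLN+LPS and 1.52 (1.40 to 1.65) for the library labelled wtOCLN+LPS. PSMB5 was the lowest of them in siOCLN+LPS against LPS, at 1.08 (0.988 to 1.17), and PSMB4 in the library labelled wtOCLN+LPS, at 1.03 (0.968 to 1.10). The 7 genes summed to 688, 649, 564 and 575 CPM. By library totals all 7 had a log2 ratio above 0 in both transfected libraries against LPS, beside 39.2% and 36.8% of all tested genes. After removal of the trend on length and GC, 5 of 7 lay above 0 in each, and PSMB4 and PSMB5 lay below. Against LPS, their median log2 ratio was 0.31 for siOCLN+LPS and 0.14 for the library labelled wtOCLN+LPS, and 0.16 and 0.024 once the trend on length and GC was taken out.

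In summed level by library totals, the 19S particle lay closer to LPS than the alpha ring and the constitutive beta subunits. Its 6 ATPases, which unfold substrates, had summed ratios to LPS of 1.11 for siOCLN+LPS and 1.09 for the library labelled wtOCLN+LPS. After removal of the trend on length and GC, their median log2 ratios were 0.145 and 0.102. Those of the constitutive beta subunits were 0.161 and 0.024, so in the library labelled wtOCLN+LPS the ATPases then lay further from LPS. PSMC3 had the highest ratio of them in siOCLN+LPS (182 CPM, against 145 CPM in LPS), and PSMC5 in the library labelled wtOCLN+LPS (175 CPM, against 148 CPM in LPS). PSMC6 ran the other way, with 53.4, 57.6, 68.1 and 71.4 CPM in the order of libraries above, and ratios to LPS of 0.785 (0.716 to 0.860) and 0.846 (0.774 to 0.926), or log2 ratios of -0.20 and -0.07 by TMM. The 14 non-ATPase subunits, among them ubiquitin receptors and a deubiquitinase, had summed ratios of 1.01 and 0.967. PSMD12, a scaffold subunit, had the lowest ratio, with 95.2, 92.1, 125 and 131 CPM, and ratios to LPS of 0.764 (0.714 to 0.817) and 0.739 (0.690 to 0.791). PSMD8 was the highest in siOCLN+LPS against LPS at 1.19 (1.11 to 1.27), and PSMD10 in the library labelled wtOCLN+LPS at 1.19 (1.03 to 1.37). PSMD14, the deubiquitinase, had 73.0, 69.1, 83.5 and 87.8 CPM. For the non-ATPases in the library labelled wtOCLN+LPS against LPS, the median log2 ratio was -0.06 by library totals and 0.10 by TMM, so its direction changes with the scaling.

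PSME3, which forms a nuclear activator ring, had 157, 148, 147 and 148 CPM. PSME4, a single-chain activator, had 104, 109, 123 and 126 CPM, and PSMF1, which encodes the inhibitor PI31, had 122, 116, 115 and 128 CPM. None of these 3 reached 1.5-fold. For PSME4 the log2 ratio to LPS was -0.24 for siOCLN+LPS and -0.16 for the library labelled wtOCLN+LPS by library totals, but -0.09 and 0.0031 by TMM. Among the 4 assembly chaperones PSMG2 had the lowest ratios to LPS, with 45.6, 49.3, 60.4 and 65.8 CPM, at ratios of 0.755 (0.684 to 0.833) and 0.816 (0.741 to 0.899). PSMG1, which pairs with PSMG2, had ratios to LPS of 1.12 (0.999 to 1.26) and 1.06 (0.944 to 1.19). PSMG4 had 9.10, 8.0, 8.22 and 7.55 CPM. PSMA8 and PSMB11, subunits known from testis and thymus, had 0 counts in every library, and the limit of 3 counts allows up to 0.171 to 0.216 CPM.

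**Figure D3:**
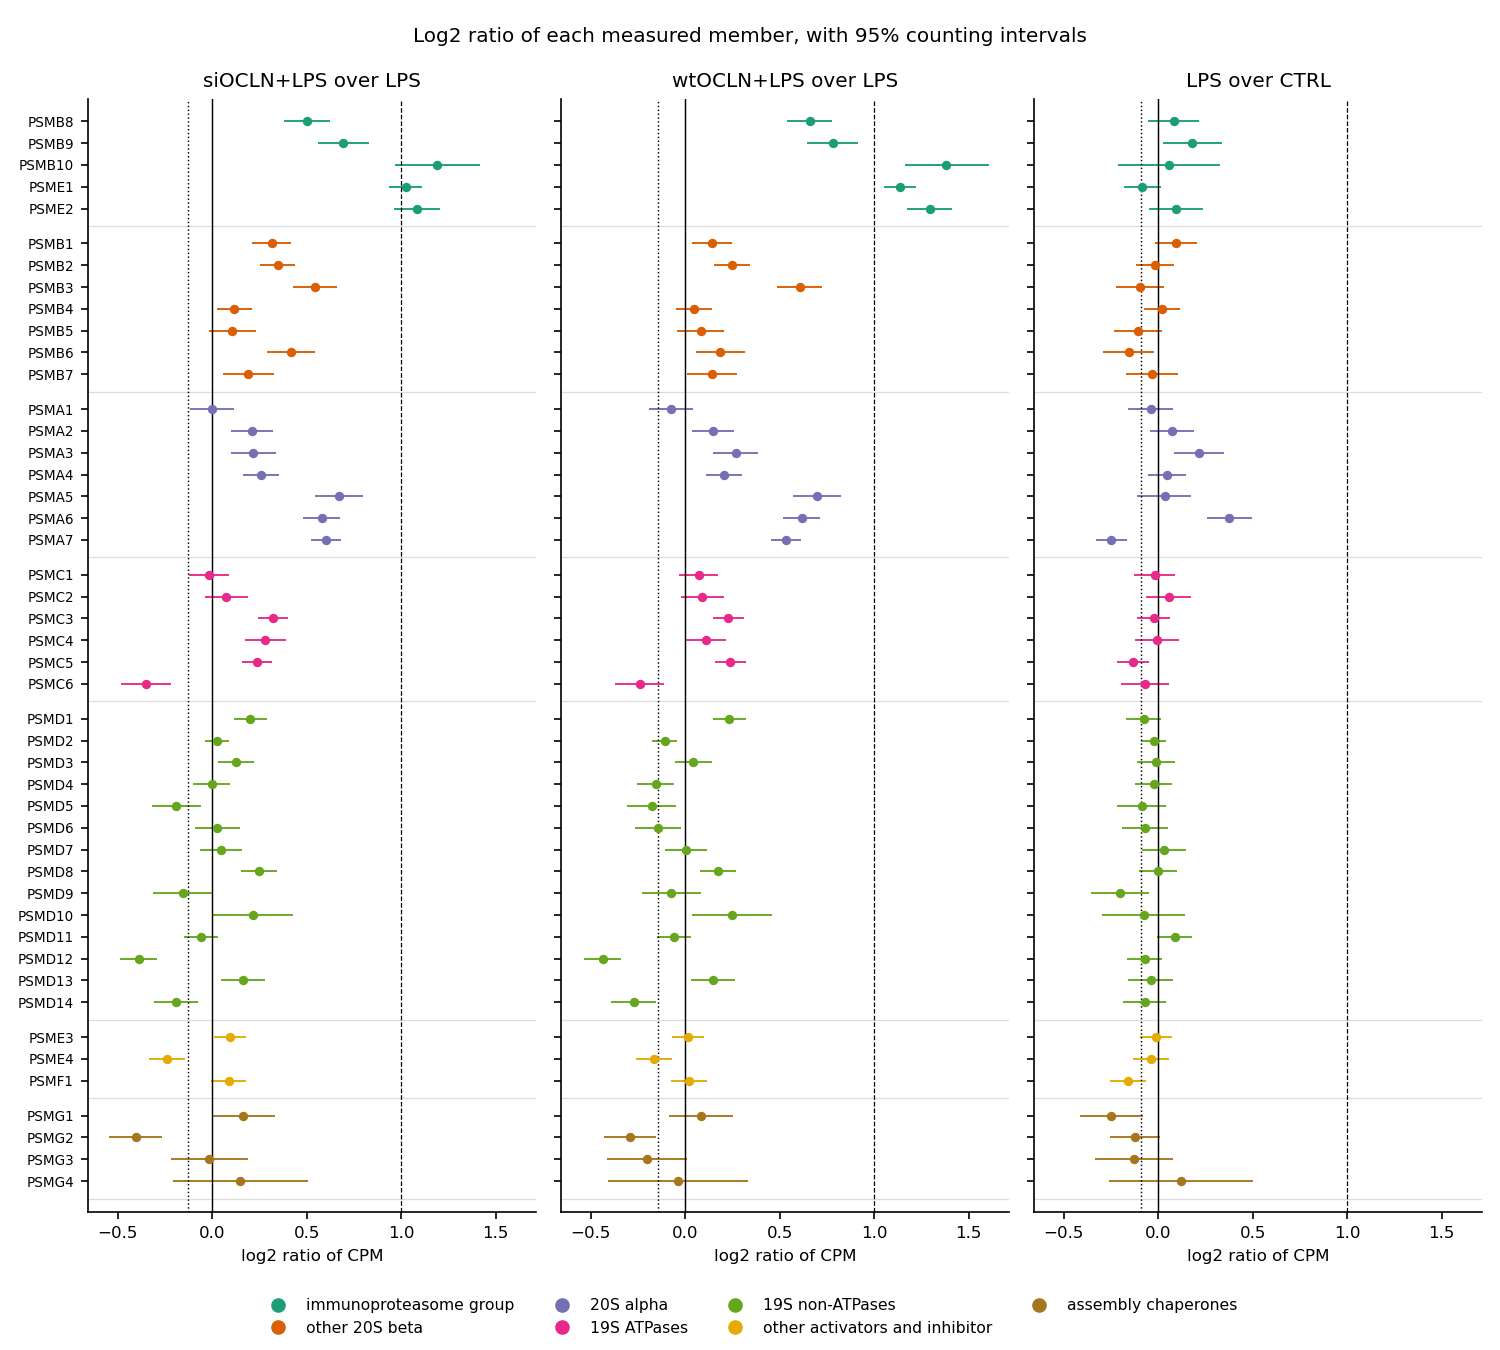
Log2 ratio of CPM without a pseudocount (horizontal axis; points, with exact 95% counting intervals as bars) of each of the 46 genes, in 3 panels for siOCLN+LPS over LPS, the library labelled wtOCLN+LPS over LPS, and LPS over CTRL, with genes coloured and grouped by role. The solid line marks a ratio of 1, the dashed line 2-fold higher and the dotted line the median of all tested genes. PSMB10, PSME1 and PSME2 lie past 2-fold in the first pair of panels, and no gene does in LPS over CTRL.

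The other subunits together stood at 4142 CPM in siOCLN+LPS and 3749 CPM in LPS, a ratio of 1.10 (1.09 to 1.12). For the library labelled wtOCLN+LPS the sum was 4005 CPM, and the ratio to LPS was 1.07 (1.06 to 1.08). Their median log2 ratio was 0.13 and 0.08, against medians over all tested genes of -0.13 and -0.15. Of 41 tested, 29 lay above and 12 below a log2 ratio of 0 for siOCLN+LPS over LPS, and 34 and 7 by TMM and 26 and 15 after trend removal. For the library labelled wtOCLN+LPS over LPS, 27 lay above and 14 below 0, and 35 and 6 by TMM and 22 and 19 after trend removal. Of all tested genes, 39.2% and 36.8% lay above 0 by library totals, and 38.7% and 36.2% after trend removal. Set against the median of all tested genes instead, 34 and 33 of the 41 lay above it. Without the genes that overlap another counted gene or have named pseudogenes, 26 other subunits had summed ratios of 1.11 and 1.06.

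**Figure D4:**
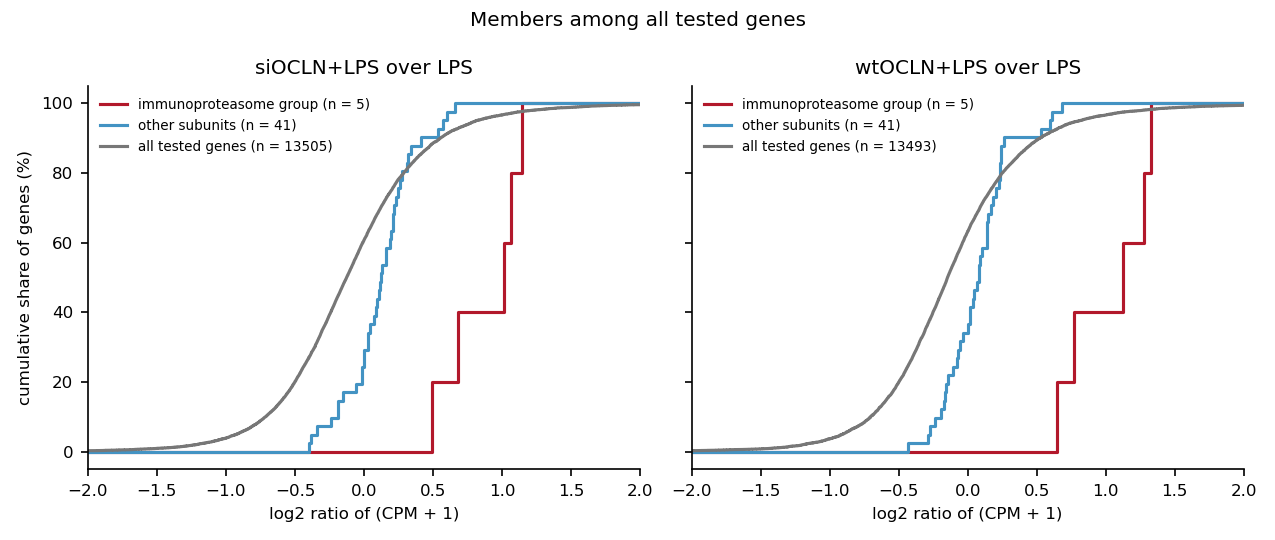
Cumulative share of genes in percent (vertical axis) against the log2 ratio of CPM + 1 (horizontal axis) for the immunoproteasome group, the other subunits and all tested genes, in 2 panels for siOCLN+LPS over LPS and the library labelled wtOCLN+LPS over LPS. The medians of the immunoproteasome group are 1.02 and 1.13, those of the other subunits 0.13 and 0.08 and those of all tested genes -0.13 and -0.15.

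In siOCLN+LPS against the library labelled wtOCLN+LPS, the immunoproteasome group was lower by a small margin. The sums were 544 CPM for siOCLN+LPS and 601 CPM for the library labelled wtOCLN+LPS, and the ratio was 0.906 (0.881 to 0.931). PSME2 had a ratio of 0.864 (0.814 to 0.917), PSMB10 0.876 (0.786 to 0.976), PSMB8 0.897 (0.837 to 0.961) and PSME1 0.925 (0.886 to 0.967), while PSMB9 at 0.941 (0.873 to 1.01) had an interval that included 1. The constitutive PSMB6 had the highest ratio of all 46 genes, at 1.17 (1.09 to 1.27), and PSMB3 the lowest of its ring, at 0.959. In the other roles the ratios ran from 0.966 (PSMA3) to 1.05 (PSMA1) in the alpha ring, from 0.928 (PSMC6) to 1.13 (PSMC4) in the 19S ATPases and from 0.945 (PSMD9) to 1.12 (PSMD6) in the 19S non-ATPases. They ran from 0.949 (PSME4) to 1.06 (PSME3) in the other activators and the inhibitor, and from 0.925 (PSMG2) to 1.14 (PSMG3) in the chaperones. No gene was 2-fold higher, against 0.0763% of 13109 tested genes, or 2-fold lower, against 0.29%. At 1.5-fold the counts were 0 higher, against 0.755%, and 0 lower, against 1.19%. Intervals wholly above 1 were seen for 10 genes, none of the immunoproteasome group, against 15.1%, and wholly below 1 for 4 (PSMB8, PSMB10, PSME1 and PSME2), against 11.9%.

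Genes that act with the proteasome were given by 4 further lists, whose counts stand beside the shares of all tested genes given above for each comparison and fold. Of 16 proteasome partners, 0 were at least 2-fold apart in any of the 4 comparisons. VCP, the ATPase that extracts ubiquitinated proteins, had 311 and 314 CPM in the transfected libraries, against 229 CPM in LPS, at ratios of 1.36 and 1.37. KIAA0368, a proteasome adaptor also called ECPAS, had 159 and 152 CPM in the transfected libraries against 217 CPM in LPS, and TXNL1 had 58.0 and 57.3 CPM against 74.1 CPM. The partners had a median log2 ratio of -0.14 for siOCLN+LPS over LPS and of -0.09 for the library labelled wtOCLN+LPS over LPS, beside -0.13 and -0.15 for all tested genes. The 4 ubiquitin precursor genes had 0 members past 2-fold in each comparison, and UBB had 577, 476, 407 and 435 CPM in the order above.

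Among 9 tested genes of transcriptional control, IRF1, an interferon regulatory factor that binds the ISRE, had 1036, 1009, 463 and 89.1 CPM. LPS stood at 5.20 (4.91 to 5.51) times CTRL for IRF1, and it was the 1 gene of the list past 2-fold there, with 0 lower. IRF9, the DNA-binding part of a complex that carries interferon signals, had 47.3, 80.5, 24.3 and 29.3 CPM. Its level in siOCLN+LPS was 0.587 times (0.538 to 0.640) that of the library labelled wtOCLN+LPS. DDI2, the protease that activates the proteasome regulator NFE2L1, had 12.4, 14.3, 27.5 and 29.9 CPM. In siOCLN+LPS against LPS 1 gene was past 2-fold higher (IRF1) and 1 lower (DDI2). In the library labelled wtOCLN+LPS against LPS, IRF9 at 3.31 (2.94 to 3.74) and IRF1 at 2.18 (2.12 to 2.24) were past 2-fold higher, and 0 genes of the list were past 2-fold lower. In siOCLN+LPS against the library labelled wtOCLN+LPS 0 were past 2-fold in either direction.

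For the 14 genes of peptide supply to MHC class I, siOCLN+LPS against LPS had 0 past 2-fold in either direction and 3 at least 1.5-fold higher, against 9.09% of all tested genes. Higher than LPS in the library labelled wtOCLN+LPS were 1 by 2-fold (TAPBPL), against 3.32%, and 5 by 1.5-fold, against 8.59%. In LPS against CTRL, 0 were past 2-fold and 1 was at least 1.5-fold higher (TAPBP), against 3.45%. TAP1, the peptide transporter subunit whose gene lies beside PSMB9, had ratios to LPS of 1.53 and 1.80. ERAP2, a peptide-trimming enzyme, had ratios of 1.72 and 1.79. The list's median log2 ratio was 0.25 and 0.50 in these comparisons, 0.04 in LPS against CTRL and -0.21 in siOCLN+LPS against the library labelled wtOCLN+LPS.

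Some of these counts are uncertain, because genes share exons or have near copies and neither the counting strand nor the treatment of shared reads is given. PSMB8-AS1, which overlaps PSMB8 on the opposite strand and PSMB9 on the same strand, had 77, 103, 64 and 63 counts in the order of libraries above. PSME1 overlaps EMC9 on the opposite strand, which had 198, 183, 85 and 113 counts, and PSME2 overlaps RNF31 on the opposite strand, which had 882, 922, 657 and 854 counts. In all 12 genes overlap a counted gene, 10 have named pseudogenes, and 29 have neither. Of the 10, PSMC1 has 13 pseudogenes, PSMA6 has 4, PSMA2 and PSMD10 have 3 each, and PSME2 has 2. PSMB3, PSMB7, PSMD4, PSMD7 and PSMD8 have 1 each. None of these pseudogenes was among the counted genes.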

How the data were processed

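The deposited files hold whole-number counts of reads per gene symbol, per the file contents, from libraries made with a directional kit from 1.3 ug of total RNA, per the labels' protocols. The submitters' processing notes name TopHat, Cufflinks and hg19, without versions; for the counting tool, its strand setting and the annotation the sources used here give nothing. Counts were scaled to CPM by library total. Genes that reached 1 CPM in a library of the comparison were tested on log2(CPM + 1), and counted as apart at 2-fold. With 1 library in each of 4 groups there was no test across replicates: the quasi-likelihood test of edgeR could not be fitted, and each statement compares libraries, not conditions. Ratios are of CPM without a pseudocount, with exact 95% Clopper-Pearson intervals, and exact Poisson intervals go with single CPM values. Reads without molecular identifiers are not independent molecules, so all intervals, and the limit of 3 counts for a gene at 0, cover counting error only.

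Genes and lists were chosen with earlier results of these data known. By rule the text names OCLN, the immunoproteasome genes, PSMB5, PSMB6, PSMB7, the members with the highest and lowest ratio of each role at CPM 5 or more, every member past 2-fold or under 1 CPM throughout, and up to 4 genes of each list, some of which are not reported here; PSMD14 and genes that only a count names were added after their values were seen. Cell type markers were listed for bronchial epithelium, fibroblasts, leukocytes and endothelium. Levels per kilobase use the median length of GENCODE 29 basic protein-coding transcripts, and trends with length and GC a quadratic fit on the longest one. That annotation and the RefSeq promoters are on another build than the counts and gave names, lengths and sequences; 42 of the genes had a promoter window. The count and interval steps were tested on simulated counts. Alternatives were pseudocounts of 0.1 and 5, filters at 5 CPM and at none, 1.5-fold and 3-fold thresholds, TMM, median ratio and upper quartile scaling, trend removal, and CTRL in place of LPS. The TMM and upper quartile factors came from edgeR 4.0.16 in R 4.3.3, and all else from Python 3.11.15 with pandas 2.3.3, SciPy 1.17.1, NumPy 2.4.6 and, for plots, matplotlib 3.10.9.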

Additional observations from a re-analysis of the deposited data

How the results depend on the processing

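In siOCLN+LPS against LPS, 3 genes were past 2-fold, but 1 with a pseudocount of 5 (PSME2), 6 at 1.5-fold, 0 at 3-fold and 0 after removal of the trend on length and GC. In the library labelled wtOCLN+LPS against LPS, 3 were past 2-fold, 8 at 1.5-fold and 0 at 3-fold. With TMM, median ratio and upper quartile scaling, the log2 ratio of the summed immunoproteasome group was 1.04, 1.04 and 1.01 in siOCLN+LPS against LPS (0.90 with library totals), 1.21, 1.20 and 1.15 in the library labelled wtOCLN+LPS against LPS (1.04), and 0.13, 0.13 and 0.12 in LPS against CTRL (0.03). The median of the genes in place of the sum gave 1.02 and 1.13 for the transfected libraries. For the other subunits the same scalings gave 0.29, 0.29 and 0.26 in siOCLN+LPS against LPS (0.14 with library totals), and 0.26, 0.26 and 0.20 in the library labelled wtOCLN+LPS against LPS (0.10). They gave 0.061, 0.064 and 0.056 in LPS against CTRL (-0.03 with library totals, so the sign turned with the scaling), and TMM and median ratio gave 0.029 and 0.030 in siOCLN+LPS against the library labelled wtOCLN+LPS (0.05). For these genes in siOCLN+LPS against LPS, the median gave 0.13, trend removal 0.10 and CTRL as reference 0.11. In the library labelled wtOCLN+LPS against LPS, trend removal gave 0.024 and CTRL as reference 0.063, and in siOCLN+LPS against the library labelled wtOCLN+LPS trend removal gave 0.034. The cause of these shifts was not tested, beyond the shift in all genes that the scalings make by construction. No paired analysis was possible because each group has 1 library. Leaving out a library was not possible for the same reason.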
